A study of Mus musculus with 2 samples.

Results

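The genes described are 10 liver genes for receptors of foreign compounds, bile acids, fatty acids, sterols and thyroid hormone, and their DNA methylation in liver of Uhrf1 mutant mice. They are Nr1i2 (PXR), Nr1i3 (CAR), Nr1h4 (FXR), Nr1h3 (LXRα), Rxra, Ppara, Ahr, Nr0b2 (SHP), Nr5a2 (LRH-1) and Thrb. A CpG belonged to a gene when it lay between 5 kb upstream of the 5′ end and the gene's end in the mm9 annotation and was read at least 5 times in both libraries, which are called shared CpGs. In total 1220 of 2654195 shared CpGs in the genome met this rule, out of 4480 CpG cytosines of these loci listed in either library. The CpGs were selected on their read coverage, and the genes were chosen with the measured loss of methylation at the Nr1i2 promoter already known, so that promoter is described without a p-value, and nothing is read from its call where it enters a count.

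The study compared wild-type (WT) mice with mice homozygous for a point-mutation knock-in (KI) in Uhrf1, a cofactor of the maintenance DNA methyltransferase Dnmt1. The mutation replaces a tyrosine and a proline of the tandem Tudor domain with alanine and impairs binding of the protein to methylated lysine 9 of histone H3. Genomic DNA of male liver at 3 months, C57BL/6 by the labels, was pooled from 3 mice per genotype and measured by reduced representation bisulfite sequencing (RRBS), which reads CpG-rich MspI fragments bounded by CCGG sites. The deposited genotype label of the KI library reads knock out, whereas its title and the study's methods describe the KI. The mutation is present in all cells of the KI animals, and liver is a mixture of cell types, so a change in methylation and a change in the share of a cell type cannot be told apart.

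Each genotype had 1 library, so no value below has a replicate check. Tests on reads compared the 2 libraries, not the genotypes, and intervals are for the same reason 95% intervals of counting error alone. The reads carry no molecular identifiers, so copies of 1 molecule are counted as separate reads and even the counting error may be understated. The WT library listed 7231934 CpG cytosines with 192144002 reads in sum, and the KI library 6452685 with 173109895. The mean methylation over all shared CpGs fell from 45.6% (WT) to 42.6% (KI), and the median CpG had 37 reads in each library. Promoters of hepatocyte markers measured were at 2.78 to 56.7% in WT, and 4 of 5 were called lower in KI (calls are defined below), beside 7.14% of all promoters tested. Of 3 measured blood and Kupffer cell marker promoters, at 65.3 to 74.8% in WT, 1 was called lower (Cd3e), and of 7 endothelial, stellate cell and cholangiocyte marker promoters, at 0.43 to 76.7%, none was called. Bodies were called lower in 5 of 7 hepatocyte markers, 3 of 4 blood and Kupffer cell markers and 6 of 10 endothelial, stellate cell and cholangiocyte markers, beside 35.1% of all bodies tested. The part of cell composition in the changes described below was not tested.

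PXR and CAR are nuclear receptors that sense drugs and other foreign compounds and induce the cytochrome P450 enzymes and transporters that clear them. FXR senses bile acids and induces SHP, a corepressor without a DNA-binding domain, which in turn restrains LRH-1 at genes of bile acid synthesis. LXRα senses oxysterols, PPARα fatty acids and TRβ, the product of Thrb, thyroid hormone, and most of these receptors bind DNA as a pair with RXRα. AhR is not a nuclear receptor but a ligand-activated basic helix-loop-helix protein that responds to aromatic compounds such as dioxin. Methylation of CpGs in CpG-rich promoters goes with silent genes in general, whereas bodies of active genes are commonly methylated.

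4 stretches to which the values below refer are printed from the mm9 genome in the direction of the gene, with the shared CpGs in capitals. The stretch of the Nr1i2 first intron (chr16:38293913-38294211) holds the loss next to the 5′ end, and the stretch upstream of Thrb (chr14:18493007-18493167) represents the unmethylated CpG-rich promoters. The introns of Thrb (chr14:18717491-18717594) and Nr5a2 (chr1:138849461-138849566) hold the other fragments with an interval of the change that left out 0. This holds for their plus strands only, among fragment strands with at least 4 CpGs outside CCGG sites.
Nr1i2 first intron: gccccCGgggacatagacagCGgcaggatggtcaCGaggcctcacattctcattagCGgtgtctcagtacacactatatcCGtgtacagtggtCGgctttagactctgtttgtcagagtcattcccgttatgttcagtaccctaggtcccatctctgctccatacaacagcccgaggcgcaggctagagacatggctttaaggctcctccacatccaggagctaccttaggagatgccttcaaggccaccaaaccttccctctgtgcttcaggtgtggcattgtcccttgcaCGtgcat
Thrb upstream: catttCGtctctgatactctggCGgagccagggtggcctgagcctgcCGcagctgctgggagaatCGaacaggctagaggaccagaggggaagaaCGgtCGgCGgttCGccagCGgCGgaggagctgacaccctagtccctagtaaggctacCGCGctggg
Thrb intron: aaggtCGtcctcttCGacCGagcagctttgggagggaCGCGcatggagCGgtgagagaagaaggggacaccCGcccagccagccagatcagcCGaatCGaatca
Nr5a2 intron: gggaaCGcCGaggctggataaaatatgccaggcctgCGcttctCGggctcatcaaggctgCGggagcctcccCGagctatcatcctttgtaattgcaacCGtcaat

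Of the 1220 CpGs, 774 were under 20% methylated in WT and 243 over 70%. Coding exons averaged 68.1% in WT over 93 CpGs, introns 28.9% over 736 and untranslated regions 9.93% over 233. Outside CCGG sites these means were 77.2% over 69, 29.5% over 469 and 8.42% over 197. The counts in this paragraph include 361 CCGG cytosines, among them positions that end repair fills with unmethylated cytosine in RRBS. Methylation was lower in KI at 381 CpGs by any amount, higher at 291 and equal at 548. At single CpGs (Fisher's exact test with Benjamini-Hochberg adjusted p under 0.05 over all shared CpGs and a difference over 25 percentage points) 4 were called lower, or 0.328% of the members, against 1.09% of all shared CpGs, and 2 were called higher, or 0.164%, against 0.0474%. With counts this small neither share is a result about the members. The 46 CpGs at the limit of 5 reads in the shallower library averaged 31.3% in WT and 27.9% in KI, and the 81 just below it, with 4 reads, 24.2% and 21.4%.

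**Figure D1:**
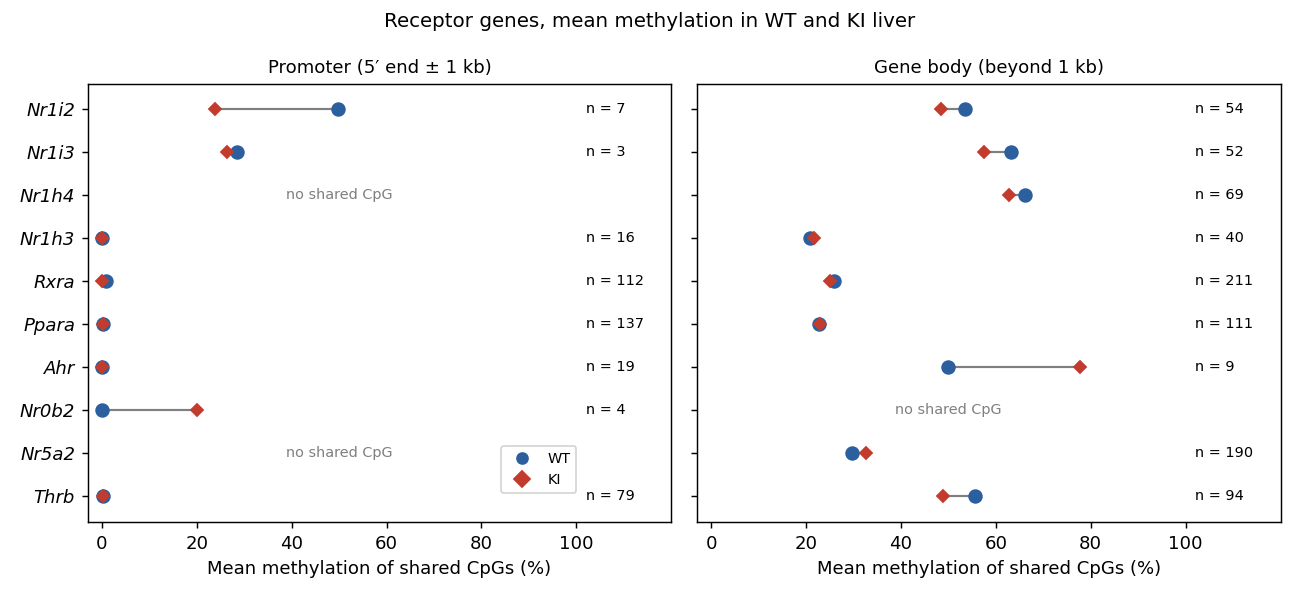
Mean methylation (%) of the shared CpGs of each receptor gene in the WT (circles) and KI (diamonds) library, in the promoter (left) and in the body (right), with n the number of CpGs. 5 promoters with at least 16 CpGs lie below 1% in both libraries, the Nr1i2 promoter falls from 49.9 to 23.8%, and the Ahr and Nr0b2 points that rise rest on 9 and 4 CpGs.

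A promoter was the 1 kb on each side of the annotated 5′ end, and its value the mean of the percentages of its shared CpGs. Promoters and bodies with at least 5 shared CpGs were tested, and a region was called when 2 tests, Fisher's exact test with the reads of the region added up and the Cochran-Mantel-Haenszel (CMH) test stratified by CpG, both had an adjusted p under 0.05 in 1 direction. Among the 6 receptor promoters with enough CpGs, 2 were called lower, Nr1i2 and Rxra, beside 7.14% of 16516 promoters in the genome, and 0 were called higher, beside 1.14%. The loss at Nr1i2 was part of the choice of the genes, so nothing is read from that count. The median change over the 6 promoters was -0.0013 percentage points, and over all promoters tested -0.053.

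Nr1i2, which encodes PXR, lies at chr16:38248409-38294910 on the minus strand and had 7 shared CpGs among 54 CpG cytosines of its promoter. All 7 lay in the first intron, 705 to 992 bp downstream of the 5′ end, and were read on the plus strand. On average they were methylated at 49.9% in WT and at 23.8% in KI, which is a change of -26.1 percentage points. 6 of the 7 lay inside 1 MspI fragment and went from 58.2 to 27.8%, a difference of -30.4, with an interval of -58 to -2.83 when the CpGs of a fragment are taken as fully dependent. The CpG 780 bp from the 5′ end had 16 of 25 reads methylated in WT and 6 of 20 in KI, which are 64% and 30%. The CpG at 793 bp had 15 of 25 and 6 of 20, and the CpG at 756 bp had 15 of 24 and 8 of 20.

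All 6 CpGs of the fragment were lower in KI, with levels from 45.8 to 64% in WT and from 10 to 40% in KI. The CpG at 734 bp had 15 of 24 reads methylated in WT and 6 of 19 in KI, and that at 720 bp 13 of 24 and 5 of 20. The CpG at 992 bp had 11 of 24 and 2 of 20, the lowest level of the run in both libraries. The remaining CpG, in the CCGG site at 705 bp that bounds the fragment, had 0 of 24 and 0 of 20 reads methylated, at a position that end repair fills with unmethylated cytosine in RRBS. On the other side, 1018 bp from the 5′ end and just outside the promoter, the CCGG cytosine had 14 of 25 and 6 of 20. With about 24 WT and 20 KI reads over 1 fragment, and no CpG of the promoter nearer to the 5′ end shared, the value rests on 1 set of read pairs in each library. Counted once per fragment strand, the sums were 14 of 48 methylated in WT and 6 of 40 in KI, and the promoter was not called. In such counts a CCGG cytosine filled by end repair falls to the neighbouring fragment, so the 0 of 24 and 0 of 20 at 705 bp entered apart. The reads of this fragment were thus counted again there as unmethylated. The 10 promoter CpGs outside the shared set had 16 of 17 reads methylated in WT and 26 of 49 in KI, summed over CpGs. Each had at most 2 WT and 7 KI reads, so nothing is read from their difference.

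**Figure D2:**
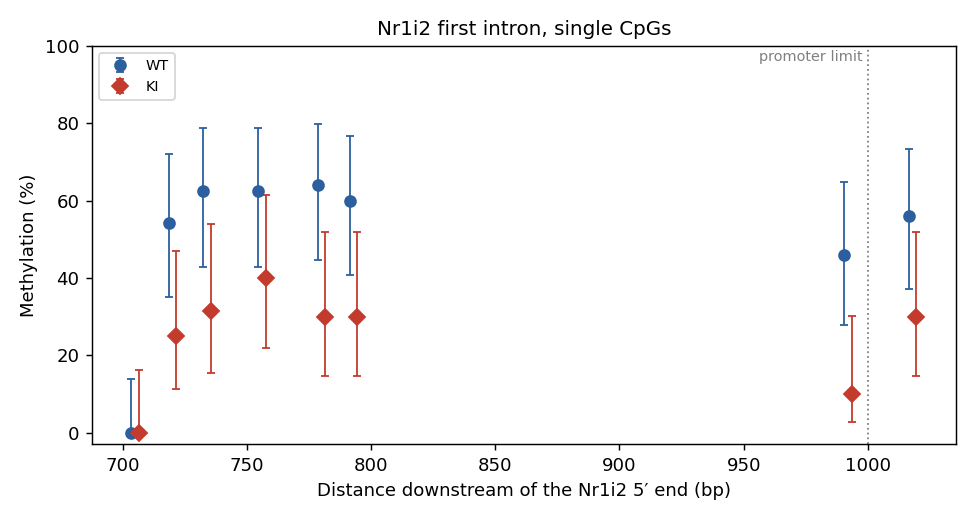
Methylation (%) of single CpGs of the Nr1i2 first intron against their distance from the 5′ end (bp) in WT (circles) and KI (diamonds), with 95% Wilson intervals of the reads and the 1 kb limit of the promoter as a dotted line. The 6 CpGs of the fragment stand at 45.8 to 64% in WT and at 10 to 40% in KI, and the WT and KI intervals overlap at every CpG.

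The promoters whose means in WT and KI lay nearest to those of Nr1i2 among all genes were those of D130017N08Rik, Lhcgr, AC122189.1, Vmn2r7 and Celf2. They lay 3.23 to 5.93 percentage points from it in the plane of both means. Lhcgr, the receptor of luteinizing hormone, went from 52.5 to 21.7%, and Celf2, an RNA-binding protein, from 44.2 to 25.5%. They were picked for this likeness, so their changes are a description only.

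Nr1i3, which encodes CAR, lies at chr1:173144101-173150832 on the plus strand and had 3 shared promoter CpGs, too few for a test. The CpG in a coding exon 431 bp from the 5′ end had 38 of 93 reads methylated in WT and 15 of 53 in KI, which are 40.9 and 28.3%. The CCGG cytosine at 276 bp went the other way, with 41 of 95 and 28 of 55. Single-CpG intervals overlapped at both sites, and the mean over the 3 CpGs was 28.4% in WT and 26.4% in KI, with an interval of the difference of -12.8 to 8.87.

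Nr1h4, which encodes FXR, and Nr5a2, which encodes LRH-1, had no shared CpG among 58 and 16 promoter CpG cytosines, so their promoters are not described. Nr0b2, which encodes SHP, lies at chr4:133109291-133112451 and had 4 shared CpGs, all in a coding exon 311 to 396 bp from the 5′ end. They had 0 of 28 reads methylated in WT and 4 of 20 in KI, means of 0 and 20%, with an interval of the difference of -20.3 to 60.3. At 5 to 8 reads per CpG this difference could not be told from counting error. The 0 in WT allows a level of up to 10.7% if each CpG of a read is counted as independent, and more if not.

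The promoters of Nr1h3, Rxra, Ppara, Ahr and Thrb were unmethylated or nearly so in both libraries. At the 16 CpGs of Nr1h3 none of 222 WT reads and none of 334 KI reads, summed over CpGs, was methylated. This allows up to 1.35 and 0.898% if each CpG of a read is counted as independent, and more if not. Its annotated 5′ end belongs to a noncoding transcript, and its coding transcripts start 7683 to 7949 bp further in, so this window is not the start of the LXRα coding transcripts. Ahr had 0 of 113 and 0 of 114 at 19 CpGs, with about 6 reads per CpG, which allows up to 2.65 and 2.63% on the same footing. With the CpGs of a fragment taken as dependent, its interval of the difference was -27.8 to 27.8 percentage points. Ppara, at 137 CpGs, had 22 of 8838 reads methylated in WT and 14 of 6193 in KI, and its means were 0.212 and 0.209%. Thrb, at 79 CpGs, had 9 of 4557 and 6 of 3742, and its means were 0.119 and 0.277%. None of these 4 was called by Fisher's exact test and the CMH test.

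Rxra, the common partner of these receptors, was the other promoter called lower. At 112 CpGs it had 15 of 2072 reads methylated in WT and 0 of 2009 in KI, so its mean went from 0.766% to 0 (adjusted p = 0.00116 by Fisher's exact test on reads and 0.013 by the CMH test). The 0 allows up to 0.149% if each CpG of a read is counted as independent, and more if not. The 15 methylated reads lay at 8 CpGs of 2 fragment strands, with 1 to 4 at each CpG, and all of these CpGs had 14 to 23 reads. With CpGs of at least 20 reads only, the difference was 0 and the promoter was not called, and with each read counted once per fragment strand it was 2 of 210 against 0 of 240, also not called.

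Bodies, from 1 kb past the 5′ end to the gene's end, held 830 of the shared CpGs. Of the 9 receptor bodies tested, 3 were called lower (Nr1i2, Nr1i3 and Thrb), beside 35.1% of 15923 bodies in the genome, and 1 was called higher (Ahr), beside 0.754%. The share called lower was close to that of all genes. The median change was -0.87 percentage points over the 9 bodies and -1.98 over all bodies, and the body mean was lower in KI in 5 of the 9 and in 80.9% of all bodies. With each read counted once per fragment strand, 0 receptor bodies were called by both tests.

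**Figure D3:**
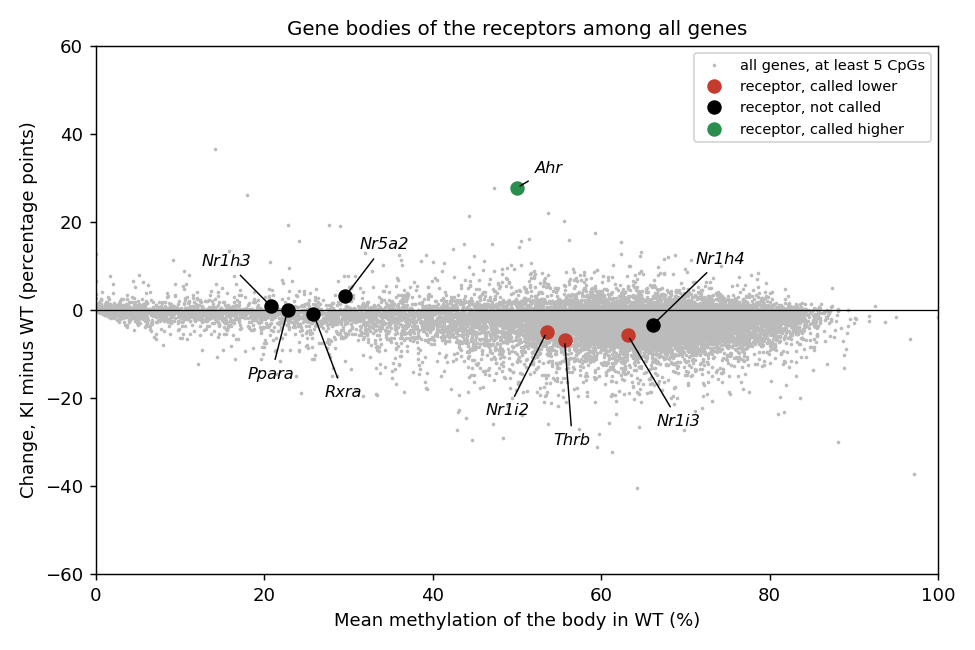
Change of the mean methylation of the gene body (KI minus WT, percentage points) against its level in WT (%), with the 15923 bodies of at least 5 shared CpGs as grey points and the 9 receptor bodies as large points coloured by their call. Nr1i2, Nr1i3 and Thrb have changes of -5.0 to -6.85 within the cloud, and Ahr lies far above it with 9 CpGs.

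Among the sensors of foreign compounds, the bodies of Nr1i2 and Nr1i3 were more methylated than not in WT and were called lower in KI. Nr1i2 went from 53.5 to 48.5% over 54 CpGs, with 31 lower and 18 higher (adjusted p = 0.00261 by Fisher's exact test and 0.000736 by CMH). Nr1i3 went from 63.2 to 57.4% over 52 CpGs, with 37 lower and 11 higher (adjusted p = 3e-05 by Fisher's exact test and 3.97e-08 by CMH). With the CpGs of a fragment taken as dependent, the interval of the difference was -12.1 to 2.05 percentage points for Nr1i2, which includes 0, and -10.7 to -0.731 for Nr1i3. Bodies within 5 points of their WT level changed by a median of -2.66 and -2.78 percentage points, and 24.3% and 19.7% of those bodies changed by at least as much downward. Losses of this size were thus frequent at like levels.

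2 single CpGs of Nr1i3 were called lower, both CCGG cytosines on the minus strand in the untranslated region at the 3′ side of the gene. At chr1:173149797 31 of 34 reads were methylated in WT and 13 of 28 in KI, which are 91.2 and 46.4% (adjusted p = 0.00965, Fisher's exact test). At chr1:173150698 the counts were 35 of 55 and 8 of 30 (adjusted p = 0.0492, Fisher's exact test).

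The body of Ahr was the only receptor body called higher, and it was the thinnest. Its 9 CpGs were those of 1 fragment in a coding exon, between 30144 and 30471 bp from the 5′ end, and of the CCGG sites that bound it. Methylation was 50% in WT, with 5 or 6 reads per CpG, and 77.8% in KI, with 10 reads per CpG (adjusted p = 0.00294 by Fisher's exact test and 0.000481 by CMH). Taking the CpGs of a fragment as dependent, the interval of the difference was -11.3 to 66.8. No CpG of it remained at a minimum of 10 reads. Counted once per fragment strand, 3 of 11 against 9 of 20 were methylated, with an adjusted p of 0.89 by Fisher's exact test. That count enters a bounding CCGG cytosine as a strand of its own, so reads of the fragment are counted again.

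For the bile acid receptor, the body of Nr1h4 (chr10:88916979-88996330) had the highest level in WT, at 66.1%, and stood at 62.7% in KI over 69 CpGs. It was not called, since Fisher's exact test gave an adjusted p of 0.0561 and the CMH test one of 0.0187. Outside CCGG sites its 47 CpGs went from 81.3 to 77.2%, with an interval of the difference of -8.14 to -0.113. In the 1 kb window chr10:88936001-88937000, which crosses a coding exon, 12 CpGs went from 80.1 to 71.3% with an interval of -20.9 to 3.24.

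The bodies of Nr1h3, Rxra and Ppara, receptors of sterols, retinoids and fatty acids, were at 20 to 26% in WT and changed by less than 1 percentage point in the mean. Nr1h3 (chr2:91024218-91042991) went from 20.7 to 21.7%, Rxra (chr2:27531960-27618477) from 25.8 to 25% and Ppara (chr15:85565413-85633249) from 22.8 to 22.8%. Their intervals were -5.73 to 7.68, -4.14 to 2.41 and -3.99 to 4.07 percentage points. With reads summed over CpGs, the Rxra body went from 32.6 to 28.8%, a difference of -3.79 percentage points. Fisher's exact test on those reads gave an adjusted p of 1.1e-06 and the CMH test 0.119, so the Rxra body was not called. Of the 40 body CpGs of Nr1h3, 36 lay within 1 kb of another annotated start. At the coding starts, the window chr2:91035001-91036000 had means of 1.13% in WT and 0.769% in KI over 13 CpGs. The adjoining window chr2:91034001-91035000 had 3.24 and 3.30% over 13 CpGs. In the window chr2:91030001-91031000, 10 CpGs went from 69.4 to 72.4%, with 28.3 WT and 57.8 KI reads per CpG. With reads summed over CpGs instead of averaging percentages, the whole Nr1h3 body of 40 CpGs had a difference of 17.3 percentage points. Fisher's exact test alone called that body higher (adjusted p = 4.91e-17), while the CMH test, which compares each CpG with itself, gave 0.791.

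A CpG of an Rxra intron, at chr2:27547077 on the minus strand, was called lower, with 62 of 120 reads methylated in WT and 28 of 112 in KI, which are 51.7 and 25% (adjusted p = 0.00353, Fisher's exact test). In an intron of Ppara, the window chr15:85599001-85600000 had the largest mean gain of the gene, from 26.6 to 34.6% over 12 CpGs, with an interval of -9.05 to 25.

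Thrb, which spans chr14:18493474-18870602, had the largest loss of the bodies called, from 55.7 to 48.8% over 94 CpGs (adjusted p = 1.37e-10 by Fisher's exact test and 2.37e-28 by CMH). 64 of the CpGs were lower in KI and 22 higher, and the interval of the difference was -11.1 to -2.63. Outside CCGG sites the 37 CpGs went from 69.9 to 56.6%. Counted once per fragment strand, the CMH test still gave an adjusted p of 1.95e-08, and Fisher's exact test gave 0.056. Among bodies of like WT level 12.5% fell at least as much.

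Windows of 1 kb in the Thrb body with at least 5 CpGs changed by -17.6 to -1.08 percentage points. Whether they differed beyond counting error was not tested. Of 59 windows of 1 kb in the receptor loci with at least 5 CpGs and 10 reads per CpG, 39 were lower in KI and 18 higher, and 5 intervals lay below 0 (that of the Nr1i2 intron, known when the genes were chosen, included) and 0 above, without adjustment for their number. The share of such windows over the whole genome was not computed, so these counts are not read as a result about the receptor loci. The 3 windows with the largest losses were the Nr1i2 intron, at -24.4 percentage points, and 2 introns of Thrb. The window chr14:18717001-18718000 went from 44.9 to 27.3% over 22 CpGs, of which 20 were lower. The window chr14:18554001-18555000 went from 57.4 to 42.7% over 6 CpGs with 145 WT and 110 KI reads per CpG. Next in order was a window of Nr1i2, chr16:38254001-38255000 with a coding exon, which went from 73.4 to 64.5% over 14 CpGs with an interval of -27.4 to 9.57.

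In the Thrb intron printed above, 9 CpG sites between 224022 and 224115 bp from the 5′ end were read on both strands. On the plus strand, with 51 to 54 reads, they went from 49.2 to 27.0%, all 9 lower, with an interval of -39.9 to -4.43. On the minus strand, with 12 to 17 reads, they went from 45.7 to 29.1%, 8 of 9 lower, with an interval of -49.8 to 16.7. The strands were read separately and had the same direction. The CpG at chr14:18717562 had 28 of 54 reads methylated in WT and 9 of 53 in KI and was called singly (adjusted p = 0.0116, Fisher's exact test). The next annotated start inside the gene lies further downstream, 320684 bp from the 5′ end.

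The body of Nr5a2 (chr1:138740161-138857004) had a higher mean in KI, 32.7% against 29.6% in WT over 190 CpGs, with 80 CpGs higher and 45 lower. The CMH test gave an adjusted p of 0.000282 and Fisher's exact test one of 0.261, so it was not called, and the interval of the difference was -1.03 to 7.27. Of 514 bodies of like WT level, 98.4% had a change at or below that of Nr5a2, and their median was -1.29. With reads summed over CpGs the difference was -1.17, so its sign depends on how CpGs are weighted.

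The higher values lay around the second annotated start of Nr5a2, 6797 bp into the gene. Within 1 kb of that start 54 CpGs went from 22.1 to 32.8%, with 39 higher and 9 lower, while the other 136 CpGs of the body stood at 32.6% in WT and 32.7% in KI. The window chr1:138849001-138850000 had 36 of 54 CpGs higher and 12 lower, and went from 26.2 to 35.4%, with an interval of -1.74 to 20.1. The adjoining window chr1:138850001-138851000, which holds the start, went from 14.5 to 24% over 5 CpGs with 10 to 11 reads.

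In the Nr5a2 intron printed above, 7 CpG sites lay 646 to 741 bp past the second start. On the plus strand, with 33 to 43 reads, they went from 19.8 to 45.6%, all 7 higher, with an interval of 6.23 to 45.4. On the minus strand, with 25 to 35 reads, they went from 36.4 to 50.2%, 6 of 7 higher, with an interval of -9.72 to 37.4. The 2 called CpGs were both on the plus strand. At chr1:138849529 5 of 34 reads were methylated in WT and 29 of 43 in KI, and at chr1:138849466 5 of 34 and 23 of 43 (adjusted p = 0.000404 and 0.0285, Fisher's exact test). Of 82 fragment strands with at least 4 CpGs outside CCGG sites in the receptor loci, 2 had an interval below 0 (the Nr1i2 fragment and the plus strand of the Thrb intron) and 1 above 0 (the plus strand of the Nr5a2 intron), without adjustment for their number. The Nr1i2 fragment was part of the choice of the genes and is listed as a description only. The share of such fragment strands over the whole genome was not computed, so their counts are not read as a result about the receptor loci.

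**Figure D4:**
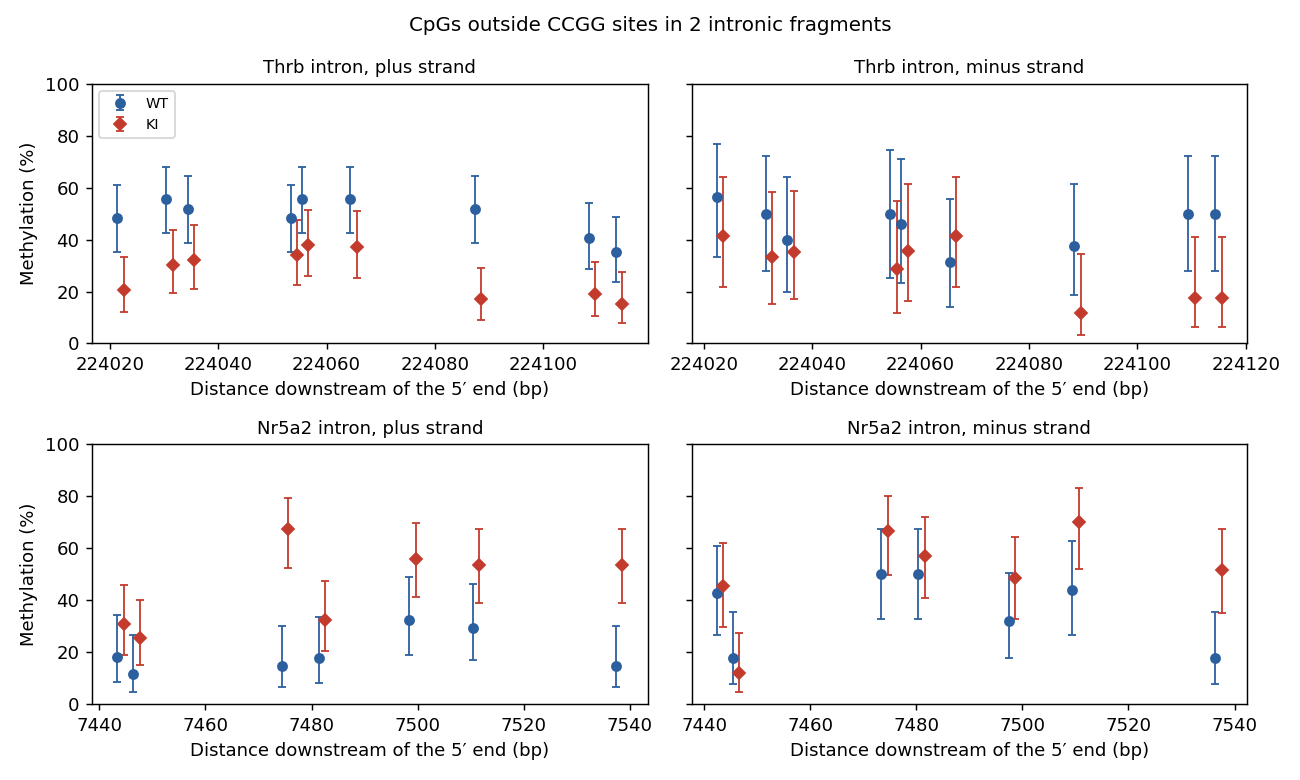
Methylation (%) of CpGs outside CCGG sites in the Thrb intron (top) and the Nr5a2 intron (bottom), read on the plus (left) and minus (right) strand, against the distance from the 5′ end (bp), with 95% Wilson intervals of the reads for WT (circles) and KI (diamonds). In Thrb 17 of 18 values are lower in KI, and in Nr5a2 13 of 14 are higher.

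Around starts other than the 5′ end, the receptor bodies as a group held 162 CpGs, at 16.3% in WT and 20.2% in KI, with 66 higher and 38 lower. Away from such starts 668 CpGs went from 42.2 to 40.2%, with 205 higher and 303 lower. Nr5a2 supplied 54 of the CpGs near a start. In Ppara the 43 CpGs near other starts went from 4.70 to 3.26%, and in Rxra 29 CpGs from 17.4 to 20.7%, so the genes did not move in 1 direction.

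At CpGs outside CCGG sites where both strands were shared, 51 of 340 sites were lower on both strands, 32 higher on both and 64 moved in opposite directions. At CCGG sites the strands of a site differed, with means of 51.1% and 1.79% in WT for the higher and lower strand of 147 sites. Outside CCGG sites these means were 28.0% and 23.1%. End repair in RRBS fills a position of CCGG sites with unmethylated cytosine, so their difference is not read as methylation of a single strand. 1 CpG, in an intron of Thrb, went from over 70% in WT to under 20% in KI, with fewer than 10 reads in either library, and 0 went the other way.

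Promoters of genes that work with these receptors were called lower at shares near the 7.14% of all promoters. Of 34 other nuclear receptors with a tested promoter, 2 were called lower and 0 higher by Fisher's exact and CMH tests, with a median change of -0.13 percentage points. They were Hnf4a, a master regulator of hepatocyte genes, from 56.7 to 45.2%, and Pparg, the fat cell receptor, from 1.72 to 0.719%. Of 16 partners and coregulators 1 was called lower, Ahrr, the repressor of AhR, from 19.2 to 17.6%. Of 27 receptor target genes 2 were called lower, Klb, the coreceptor of FGF15 and FGF21 signalling, from 36.1 to 31.5%, and Angptl4, a PPARα target that inhibits lipoprotein lipase, from 1.38% to 0. The bodies were called lower in 14 of 37 other nuclear receptors, 5 of 19 partners and 12 of 37 targets, and higher in 0 of each, beside 35.1% and 0.754% of all bodies.

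In the RefSeq promoter sequences of GRCm38.p6, short windows around each annotated start, 9 of the 10 receptor genes were matched, with 13 promoters. The nuclear receptor motif AGGTCA was present on either strand in 4 of the 13, of Nr1h4, Nr5a2, Rxra and Thrb, and in 16.3% of 32851 promoters. The AhR core motif GCGTG was present in 4, of Nr0b2, Nr5a2, Ppara and Thrb, and in 32.4% of all. The MspI site CCGG, on which RRBS coverage depends, was present in 7 of the 13 and in 52.8% of all. These are matches of letters only.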

How the data were processed

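RRBS libraries of pooled liver DNA, 1 for WT and 1 for KI, were analysed. The authors deposited, for each cytosine of a CpG on either strand, the coverage (a count of reads) and the percent methylation, made with Bismark 0.12.20 on mm9 according to the submitters' processing notes. Methylated reads were recovered as coverage times percent, and came out whole for 100% of values, within 0.006 percentage points of the deposited percent. CpGs read at least 5 times in both libraries were kept and joined by position. Regions came from the mm9 GENCODE annotation and genome. Reads were tested with Fisher's exact test per CpG and per region and with the CMH test, with continuity correction, across the CpGs of a region, two-sided, with p-values adjusted by the Benjamini-Hochberg method across every feature tested (Python 3.11.15, numpy 2.4.6, scipy 1.17.1, pandas 2.3.3). Both tests were also run on simulated reads in which every CpG was independent. Such a run cannot show the effect of CpGs that share reads. Wilson intervals were used for single CpGs. Intervals of a regional mean treat CpGs of a fragment strand as fully dependent. Members and lists were chosen with earlier results of these data known. Named were all 10 genes, the 5 windows with the largest losses and 3 with the largest gains, every shared Nr1i2 promoter CpG, called CpGs, the 5 promoters nearest to Nr1i2, and up to 3 lower and 2 higher promoters per list. Where a gene had more than 1 called CpG, all were given.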

Additional observations from a re-analysis of the deposited data

How the results depend on the processing

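No paired analysis was possible because each genotype had 1 pooled library. Alternatives were minimums of 10 and 20 reads, summing the strands of a CpG, leaving out CCGG sites, thinning the deeper library, promoters within 500 bp, reads summed over CpGs, a chi-square test and either test alone. Counting a read once per fragment strand was added after seeing the data. In it a CCGG cytosine filled by end repair counted with the neighbouring fragment, so reads could enter again there as unmethylated. The receptor body called higher (1, Ahr) became 0 at 10 reads, at 20 reads, with strands summed (difference 18.8) and with a read counted once, and 2 with Fisher's exact test alone (with Nr1h3) or the CMH test alone (with Nr5a2). The promoters called lower (2) became 1 at 20 reads, 1 within 500 bp and 0 with a read counted once. The bodies called lower (3) became 0 with a read counted once, a setting under which 20 of 16499 promoters and 1399 of 15911 bodies in the genome were called lower. Single CpGs called lower (4) became 2 with strands summed and 2 without CCGG sites, and those called higher (2) became 1 after thinning, which also left the Nr1i2 body uncalled (-4.89) and the counts lower at 3 CpGs and 2 bodies. Either test alone called 4 bodies lower. The mean change over the body CpGs (-0.89) was -3.08 with reads summed over CpGs. The cause of these moves was not tested, beyond fewer CpGs or reads entering. The mean change over the promoter CpGs (-0.48) was 0.0886 within 500 bp. That limit leaves out the 7 Nr1i2 CpGs, which lie 705 to 992 bp from the 5′ end and changed by -26.1 on average. Their loss was part of the choice of the genes, so nothing is read from the -0.48. Of 103 values for single genes, 14 changed sign, in the Thrb and Ppara promoters and the Ppara, Nr1h3 and Nr5a2 bodies, none of them called, with a size of at most 1.5 percentage points after the change. No called region changed sign, though the Rxra promoter had a difference of 0 at 20 reads.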

Other observations

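Coverage of the 5′ end of Ahr differed between the libraries. 26 CpGs located 239 to 381 bp downstream of it had 28 to 33 reads in the KI library and none in the WT library, so they were not shared. None of their 851 KI reads, summed over CpGs, was methylated. This allows a level of up to 0.353% if each CpG of a read is counted as independent, and more if not. Among the 94 promoter CpGs of Ahr outside the shared set, 0 of 1116 KI reads and 1 of 65 WT reads were methylated. No other receptor gene had a CpG with at least 20 reads in 1 library and 0 in the other.

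The unshared promoter CpGs of the genes left undescribed above were thinly read. For Nr1h4 none of 4 WT reads and none of 24 KI reads was methylated at 13 CpGs, and for Nr5a2 none of 3 WT reads and 1 of 9 KI reads at 4 CpGs. For Nr0b2 2 of 67 WT reads and 6 of 47 KI reads were methylated at 29 CpGs, and for Nr1i3 9 of 42 and 1 of 20 at 15 CpGs.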
